A study of Homo sapiens with 2 samples.

Results

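Integrins and laminin-332 join epithelial cells to the basement membrane, and 9 of their genes were followed here: the integrin alpha subunits ITGA2, ITGA3 and ITGA6, the beta subunits ITGB1, ITGB4, ITGB5 and ITGB6, and the laminin-332 chains LAMA3 and LAMB3. The genes were chosen by name, with earlier results of these data known. Every probe set that the platform annotation assigns to one of them alone was used. This gave 22 of the 54675 probe sets on the array, for 7 of the 9 genes. ITGB6 is listed only on 4 probe sets that also carry a second gene, and no probe set in the annotation used here names LAMA3, so both genes have no value of their own below. The measurements come from 2 Affymetrix arrays. Both held RNA of HT-29 cells, an established line from a human colorectal adenocarcinoma. One culture had received an siRNA pool targeting MYC (MYC siRNA) and the other a non-targeting pool (control siRNA). Both pools were used at 20 nM, with 24 h of transfection, and the cells were taken after 48 h. The protocol in the labels names the non-targeting pool, although the treatment entry of the control sample reads None. With 1 array per condition there is no replicate, so differences are described without a p-value and cannot be told apart from variation between cultures.

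An integrin is a pair of 1 alpha and 1 beta subunit, each crossing the membrane once, which binds matrix outside the cell and the cytoskeleton inside it. Most beta subunits connect to actin through talin and kindlin. The beta 4 subunit pairs only with alpha 6 and has a long cytoplasmic tail that connects, through plectin, to keratin filaments in hemidesmosomes. Laminin-332 is a trimer with chains encoded by LAMA3 and LAMB3 among its parts, and is bound by the alpha 6 beta 4 and alpha 3 beta 1 integrins. In the gut, it lies in the basement membrane under the epithelium, where integrin alpha 2 beta 1 binds collagen as well.

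Sequence just before the start sites of these genes is shown for the motifs that MYC and other factors are known to bind. RefSeq (GRCh38.p14) gave 13 windows of 250 bases for 7 of the genes, ITGA2, ITGA6, ITGB1, ITGB5, ITGB6, LAMA3 and LAMB3, some of which overlap because a gene has several starts. The E-box CACGTG, the site of MYC with its partner MAX, was in 1 of these 13 windows, a window of ITGA6, and in 6.34% of all 35116 windows. The AP-1 motif TGANTCA, a site of JUN and FOS proteins, was in 2 of the windows, 1 of LAMA3 and 1 of LAMB3, and in 6.57% of all. The GC box GGGCGG, a site of SP1, was in 9 of the windows and in 42.6% of all. Both strands were searched, and a match is a run of letters, not a measured binding site. The windows shown of LAMA3 and LAMB3 share the AP-1 motif, that of ITGA6 has the E-box, and that of ITGB5 stands for the integrins with GC boxes. In each line the capitals mark the matches to the 3 motifs and the sequence runs 5′ to 3′ on the strand of the gene.
LAMA3, plus strand, chr18:23872770-23873019: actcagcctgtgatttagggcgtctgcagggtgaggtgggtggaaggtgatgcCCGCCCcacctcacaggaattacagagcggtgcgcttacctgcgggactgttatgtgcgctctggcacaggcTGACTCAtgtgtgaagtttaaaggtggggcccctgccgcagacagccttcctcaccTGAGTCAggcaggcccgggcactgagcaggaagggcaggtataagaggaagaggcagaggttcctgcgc
LAMB3, minus strand, chr1:209651375-209651624: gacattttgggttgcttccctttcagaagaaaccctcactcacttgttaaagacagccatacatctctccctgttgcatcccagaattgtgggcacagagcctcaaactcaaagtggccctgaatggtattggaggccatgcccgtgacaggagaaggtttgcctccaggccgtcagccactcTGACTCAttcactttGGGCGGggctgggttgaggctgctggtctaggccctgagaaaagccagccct
ITGA6, plus strand, chr2:172427086-172427335: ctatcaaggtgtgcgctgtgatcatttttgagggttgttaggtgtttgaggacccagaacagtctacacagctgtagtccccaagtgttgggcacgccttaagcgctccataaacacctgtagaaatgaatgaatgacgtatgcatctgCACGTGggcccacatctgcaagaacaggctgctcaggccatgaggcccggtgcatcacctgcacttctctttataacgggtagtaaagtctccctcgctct
ITGB5, minus strand, chr3:124901419-124901668: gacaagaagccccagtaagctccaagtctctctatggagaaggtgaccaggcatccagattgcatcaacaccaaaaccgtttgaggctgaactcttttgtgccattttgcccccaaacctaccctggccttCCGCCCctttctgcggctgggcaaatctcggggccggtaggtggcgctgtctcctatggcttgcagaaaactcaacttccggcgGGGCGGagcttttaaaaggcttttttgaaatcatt
The AP-1 match of LAMB3 began 67 bases before the start shown, which is not the gene's outermost, and those of LAMA3 began 125 and 69 bases before it. The E-box of ITGA6 began 101 bases before the start shown. The window of another start of ITGA6 had GC boxes and no E-box.

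The deposited values are MAS5 signals on a linear scale, with each array scaled to a mean of 100. Following the study's methods, 50 replaced any lower signal. A probe set was an UP DEG where its signal with MYC siRNA was at least 2 times that with control siRNA, and a DOWN DEG where it was at most 0.5 times. Of 17127 probe sets above 50 in at least 1 array, 2.19% were UP DEGs and 0.607% were DOWN DEGs. The median log2 ratio of all these probe sets was 0.01. Split by mean signal into 5 equal groups, they had a median of 0.08 in the dimmest group and -0.11 in the brightest. MYC itself had a signal of 1640 with MYC siRNA and 1963 with control siRNA, a log2 ratio of -0.26, on its only probe set. Of all probe sets 77.6% had a ratio at least as high, and of the brightest group 70.5%. The RNA of MYC was thus only slightly lower than is typical for bright probe sets. The study assessed the knockdown by immunoblot of MYC protein. It also reported slower cell growth with MYC siRNA and, from array data, lower expression of curated MYC target genes. The log2 ratios of probe sets of the same gene had a pooled SD of 0.23 over 4040 genes, and it was 0.17 in the brightest and 0.28 in the dimmest of 3 equal groups of them. This SD measures disagreement between probe sets and leaves out the spread between cultures. Of the epithelial markers, 8 of 10 were above 50 in both arrays, and CDX1 and CDX2 were not. None of the measured endothelial or leukocyte markers exceeded 50 in either array, and of 8 fibroblast markers only COL1A1 did, at 78.9 with MYC siRNA and 94.7 with control siRNA.

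Of the 22 probe sets, 15 were above 50 in at least 1 array. Among these, 13 were higher and 2 lower with MYC siRNA, 3 were UP DEGs and none was a DOWN DEG. Of all 17127 probe sets above 50, 50.8% were higher, 2.19% were UP DEGs and 0.607% were DOWN DEGs. The 15 probe sets come from 7 genes, so the counts repeat genes. The 3 UP DEGs belong to 2 genes, ITGB4 and ITGB5, so they are not 3 separate observations. Each gene was also given the value of its probe set with the highest mean signal. All 7 genes were then higher with MYC siRNA, with a median log2 ratio of 0.52 beside 0.03 over the 8917 genes above 50. Of those 8917 genes 53.5% were higher. As the genes were chosen with earlier results of these data known, this contrast with all genes is no independent evidence. A ratio of at least 2 was reached by 1 of the 7 genes, ITGB4, and by 2.73% of all genes, and a ratio of at most 0.5 by none of the 7 and by 0.695% of all. After ITGB4 came LAMB3, ITGB5 and ITGA3, with log2 ratios of 0.62, 0.53 and 0.52. Of all 8917 genes, 9.35%, 12.3% and 12.7% had ratios at least as high as these, in that order. The other 3 had log2 ratios from 0.06 to 0.12 (ITGB1, ITGA6 and ITGA2). These values depend on the setting. ITGA3 was 1.37-fold higher after quantile normalization, and ITGB5 had a mean log2 ratio of 0.47 over its probe sets. After loess on mean signal the other 3 had 0.19 to 0.22.

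**Figure D1:**
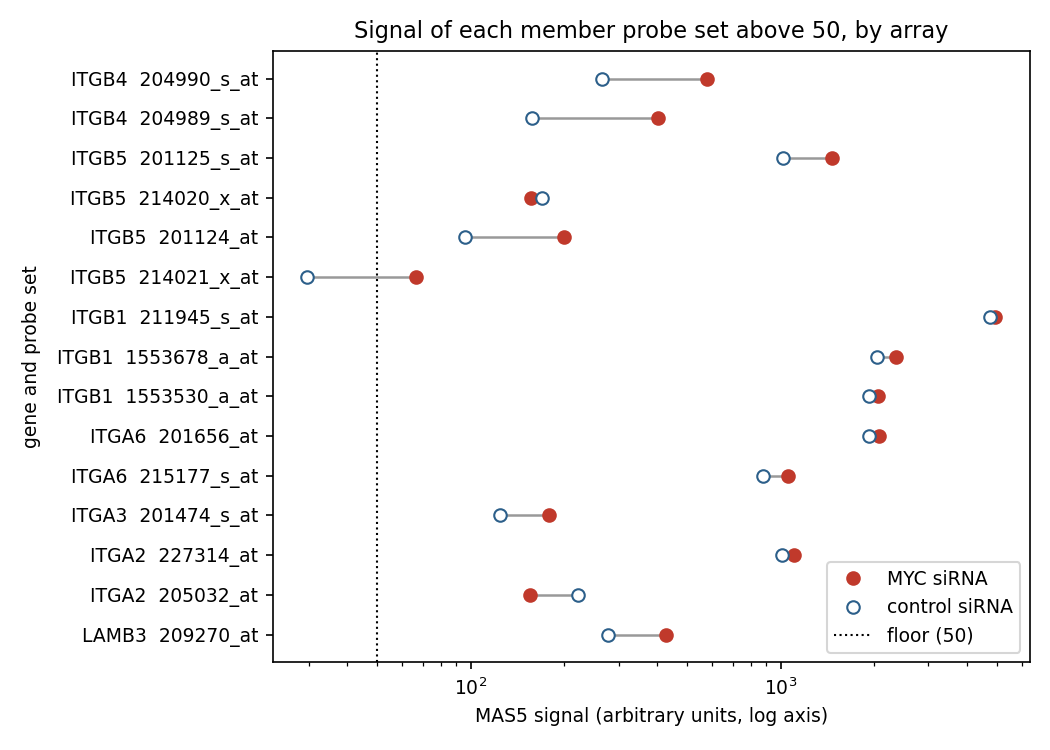
MAS5 signal (x axis, log scale) of each of the 15 probe sets above 50 (rows) with MYC siRNA (filled red) and control siRNA (open blue), joined by a line; the dotted line marks 50. The longest lines among probe sets above the floor in both arrays are those of ITGB4 and of 201124_at of ITGB5, and those of ITGB1 and ITGA6 are short.

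ITGB4, the beta subunit of hemidesmosomes, had the highest log2 ratio of the 7 genes. On probe set 204990_s_at its signal was 578 with MYC siRNA and 266 with control siRNA, which is 2.17-fold higher. On 204989_s_at it was 403 with MYC siRNA and 157 with control siRNA, 2.56-fold higher. Both probe sets were UP DEGs and their log2 ratios, 1.12 and 1.36, differ by 0.24, about the SD between probe sets of a gene. Among all 17127 probe sets, 1.55% had a log2 ratio at least as high as that of 204990_s_at and 0.747% at least as high as that of 204989_s_at. The other 3 probe sets of ITGB4 were at or under 50 in both arrays. The brightest of them, 211905_s_at, had 42.9 with MYC siRNA and 27.7 with control siRNA and gives no fold. Both UP DEGs carry the suffix of probe sets that can bind several transcripts, and none of the ITGB4 probe sets without it exceeded 50. Averaged as a linear ratio over all 5 probe sets, with the 3 dim ones counted as equal, ITGB4 had a log2 ratio of 0.63 and was under 2-fold.

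ITGA6, which encodes the only known partner of beta 4, differed far less. Its probe set 201656_at had a signal of 2078 with MYC siRNA and 1930 with control siRNA, a log2 ratio of 0.11. The other, 215177_s_at, had 1055 with MYC siRNA and 878 with control siRNA, a log2 ratio of 0.27. Both probe sets lie in the brightest group of probe sets, where the median was -0.11. The log2 ratio of ITGB4 exceeded that of ITGA6 by 1.01. The pooled SD of 0.23 is that of single probe sets within a gene, not of a difference between genes. After loess on mean signal ITGB4 had 1.13 and ITGA6 0.22. With the mean linear ratio over all probe sets, dim ones counted as equal, they had 0.63 and 0.19. This difference between the RNAs of the alpha 6 beta 4 subunits has no replicate.

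ITGB1, the beta subunit shared by the collagen and laminin receptors with alpha 2 and alpha 3, was nearly the same in both arrays. The 3 probe sets above 50 agreed closely. On 211945_s_at the signal was 4929 with MYC siRNA and 4732 with control siRNA, a log2 ratio of 0.06. On 1553678_a_at it was 2348 with MYC siRNA and 2043 with control siRNA, a log2 ratio of 0.20. On 1553530_a_at it was 2064 with MYC siRNA and 1926 with control siRNA, a log2 ratio of 0.10. The other 4 probe sets of ITGB1 were at most 25.5 in either array. The lowest log2 ratio of the ITGB4 probe sets above 50, 1.12, lies 1.06 above that of the brightest ITGB1 probe set. The brightest ITGB1 probe set has the lowest log2 ratio of the 3, and the highest is 0.20.

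ITGB5, which pairs with alpha v in a receptor of vitronectin, had probe sets that disagreed. On the brightest, 201125_s_at, the signal was 1470 with MYC siRNA and 1016 with control siRNA, 1.45-fold higher. On 201124_at it was 200.4 with MYC siRNA and 96.1 with control siRNA, 2.08-fold higher and an UP DEG. On 214020_x_at it was 156 with MYC siRNA and 169 with control siRNA, 1.09-fold lower. On 214021_x_at it was 66.9 with MYC siRNA and 29.7 with control siRNA, which with the floor is at least 1.34-fold higher. The log2 ratios span 1.18, with an SD of 0.48 over the 4 probe sets, above the pooled SD of 0.23. Only 201124_at reached the threshold. It was 1.98-fold higher after quantile normalization and then no UP DEG, whereas 214021_x_at was 2.25-fold higher with a floor of 25 and 2.21-fold higher with no floor, an UP DEG in both of these settings.

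Among the alpha subunits of laminin and collagen receptors, ITGA3 was higher and ITGA2 was divided. ITGA3, the alpha subunit of the laminin receptor alpha 3 beta 1, had 179 with MYC siRNA and 124 with control siRNA on its single probe set, 1.44-fold higher. Of all probe sets 11.1% had a ratio at least as high. ITGA2, the alpha subunit of the collagen receptor alpha 2 beta 1, had 1104 with MYC siRNA and 1014 with control siRNA on 227314_at, a log2 ratio of 0.12. On 205032_at it had 155 with MYC siRNA and 222 with control siRNA, 1.43-fold lower, a log2 ratio of -0.52. The probe sets thus go in opposite directions, and the direction of ITGA2 depends on which is taken.

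LAMB3, the beta chain of laminin-332, was 1.54-fold higher, with a signal of 428 with MYC siRNA and 278 with control siRNA on its single probe set. Its log2 ratio was 0.62, reached or exceeded by 8.07% of all probe sets and by 6.51% of those in the same of the 5 brightness groups. LAMB3 was below the threshold for an UP DEG.

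**Figure D2:**
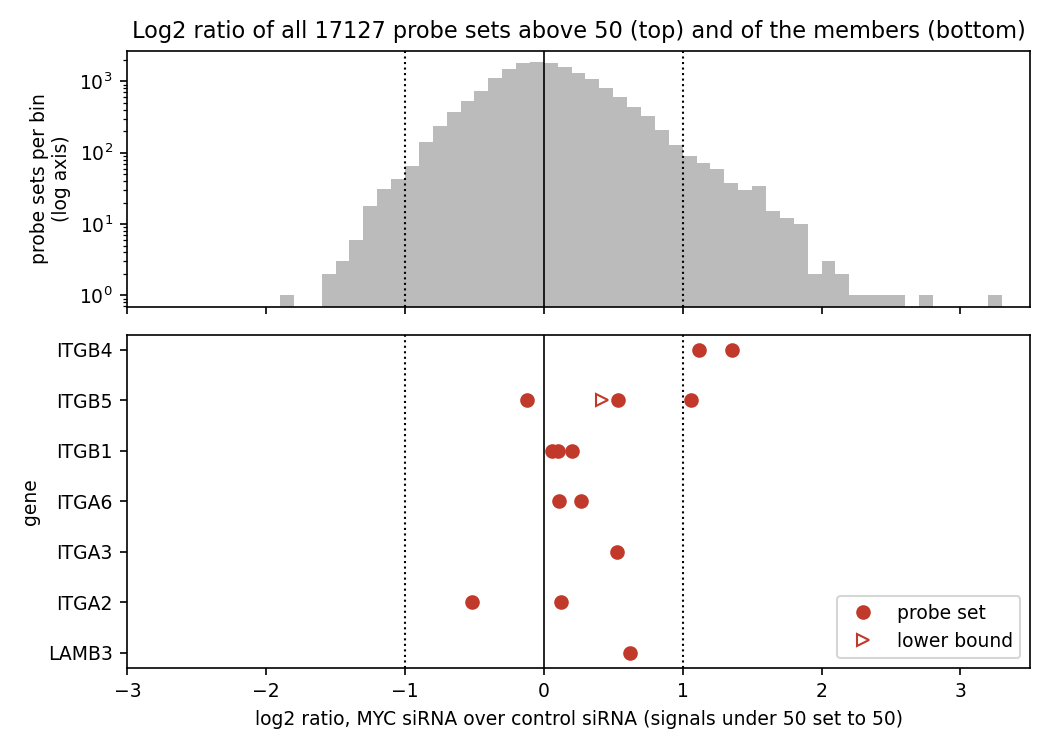
Top, number of probe sets (y axis, log scale) by log2 ratio (x axis, MYC siRNA over control siRNA) for all 17127 probe sets above 50. Bottom, the 15 probe sets of the 7 genes (rows), where the triangle is a lower bound and dotted lines mark 2-fold; both ITGB4 points and 1 of 4 ITGB5 points lie right of the upper line.

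Other genes of the same pathway were mostly higher by less than 2-fold. Over 7 lists with 95 genes, 42 genes exceeded 50 in one or both arrays. Of these, 34 were higher and 8 lower with MYC siRNA, with a median log2 ratio of 0.24, and with the floor none reached 2-fold in either direction. For 5 of the 42, 1 array was at or under 50, so the fold in either direction is a lower bound and may be 2 or more. Of all 8917 genes, 53.5% were higher, with a median of 0.03. A ratio of at least 2 was reached by 2.73% of them and a ratio of at most 0.5 by 0.695%. For so few list genes, finding none at 2-fold is near those shares, and nothing is called particular to the lists.

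Most other integrins were too dim to compare. Of 15 other alpha subunits only 2 were above 50. ITGAV, the partner of beta 5, had 1696 with MYC siRNA and 1500 with control siRNA, a log2 ratio of 0.18. ITGAE, the alpha subunit that binds E-cadherin, had 667 with MYC siRNA and 692 with control siRNA, a log2 ratio of -0.05. Of 4 other beta subunits, ITGB8, a partner of alpha v that activates TGF-beta, had 895 with MYC siRNA and 549 with control siRNA, 1.63-fold higher. The other 4 probe sets of ITGB8 were at or under 50. Of the other 3 beta subunits, 1 exceeded 50 in the MYC siRNA array alone and 2 were under 50 in both arrays. Among the other laminin chains, LAMA5, the alpha chain of laminin-511, had 727 with MYC siRNA and 504 with control siRNA, 1.44-fold higher. LAMC1 and LAMB1 had log2 ratios of 0.16 and 0.02, and the other 6 chains with a probe set were under 50.

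On their brightest probe sets, the partners of beta 4 in hemidesmosomes that exceeded 50 were higher by less than ITGB4. PLEC, which encodes plectin, had 293 with MYC siRNA and 219.8 with control siRNA, 1.33-fold higher, and its other probe set was 1.48-fold higher. DST, which encodes dystonins, among them BP230 of hemidesmosomes, was 1.38-fold higher at 429 with MYC siRNA and 311 with control siRNA. Another probe set of DST was 1.62-fold lower, at 72.8 with MYC siRNA and 118 with control siRNA. CD151, a tetraspanin that binds laminin-binding integrins, had 1325 with MYC siRNA and 1194 with control siRNA, a log2 ratio of 0.15. The other 2 genes of this list with a probe set were under 50 in both arrays.

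Of 20 adaptor and signalling genes above 50, 16 were higher and 4 lower, with a median log2 ratio of 0.27. PARVA, which encodes the alpha-parvin of the complex with integrin-linked kinase, had 415 with MYC siRNA and 235 with control siRNA, 1.77-fold higher. Its other 3 probe sets above 50 were 1.77-fold, 1.29-fold and at least 1.71-fold higher. SHARPIN, an inhibitor of integrin activation, had 135 with MYC siRNA and 77.9 with control siRNA, 1.73-fold higher. TNS4 and TNS3, tensins that bind beta tails, were 1.55-fold and 1.39-fold higher. The 4 lower genes, picked out after their values were seen, were ITGB1BP1, whose product binds the beta 1 tail, with a log2 ratio of -0.41, RSU1 with -0.35, CRKL with -0.29 and FERMT1, which encodes the epithelial kindlin, with -0.27.

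Of 8 other matrix genes above 50, 5 were higher and 3 lower, with a median log2 ratio of 0.18. Over all genes 53.5% were higher, with a median of 0.03. AGRN, which encodes agrin of basement membranes, was 1.56-fold higher at 643 with MYC siRNA and 411 with control siRNA, and its other probe set above 50 was 1.74-fold higher. CCN1 and TGFBI, secreted ligands of integrins, were 1.48-fold and 1.43-fold higher, and HSPG2, which encodes perlecan, 1.09-fold. The 3 lower genes, picked out after their values were seen, were dim. COL1A1 and COL4A2 had log2 ratios of -0.26 and -0.17. TNC had 16.1 with MYC siRNA and 50.9 with control siRNA, which with the floor is at least 1.02-fold lower. The 4 syndecans and other laminin receptors above 50 were all higher, with a median of 0.28. SDC4, a heparan sulfate proteoglycan of focal adhesions, had 2274 with MYC siRNA and 1523 with control siRNA, 1.49-fold higher. SDC1 was 1.28-fold higher on its brightest probe set and 1.13-fold lower on its other. CD44 was 1.15-fold higher on its brightest, while its other probe sets above 50 lay between 1.24-fold lower and 1.10-fold higher.

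**Figure D3:**
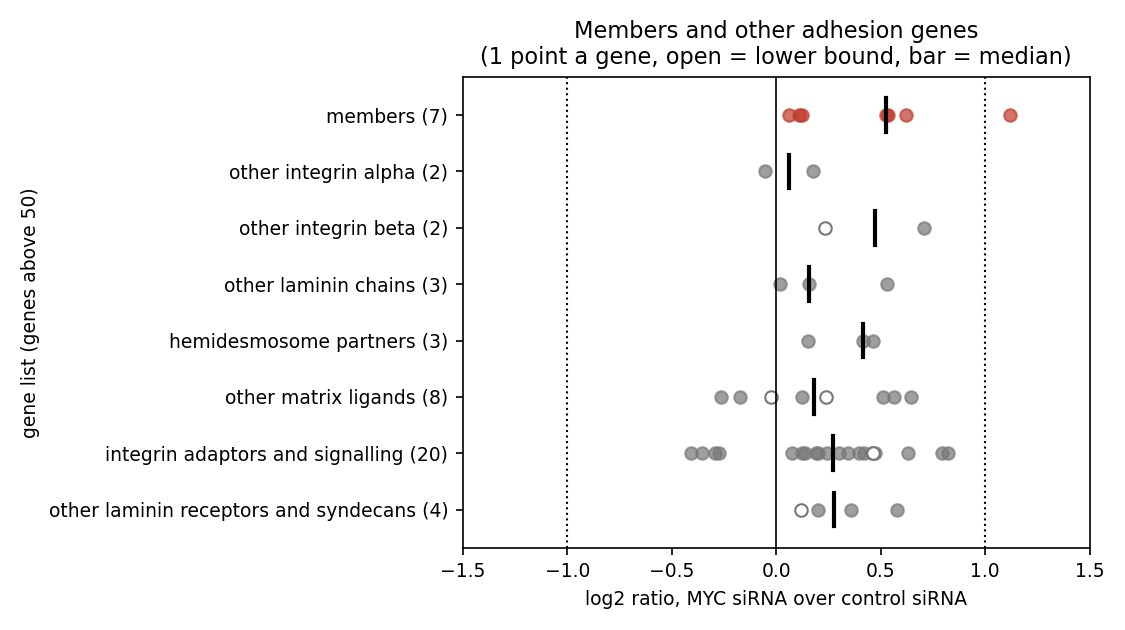
Log2 ratio (x axis, MYC siRNA over control siRNA) of single genes above 50, for the 7 genes described here (red) and 7 lists of related genes (grey). The number of genes is in brackets, medians are black bars, and open points are lower bounds of the fold in either direction. ITGB4 at 1.12 is the only point right of the dotted 2-fold line, and the medians of the grey lists lie between 0.06 and 0.47.

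In the plot of log2 ratios by setting, the widest ranges are those of genes whose probe sets disagree or are partly dim. Median centring, quantile normalization and loess left ITGB4 above 2-fold and LAMB3, ITGB5 and ITGA3 below it.

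**Figure D4:**
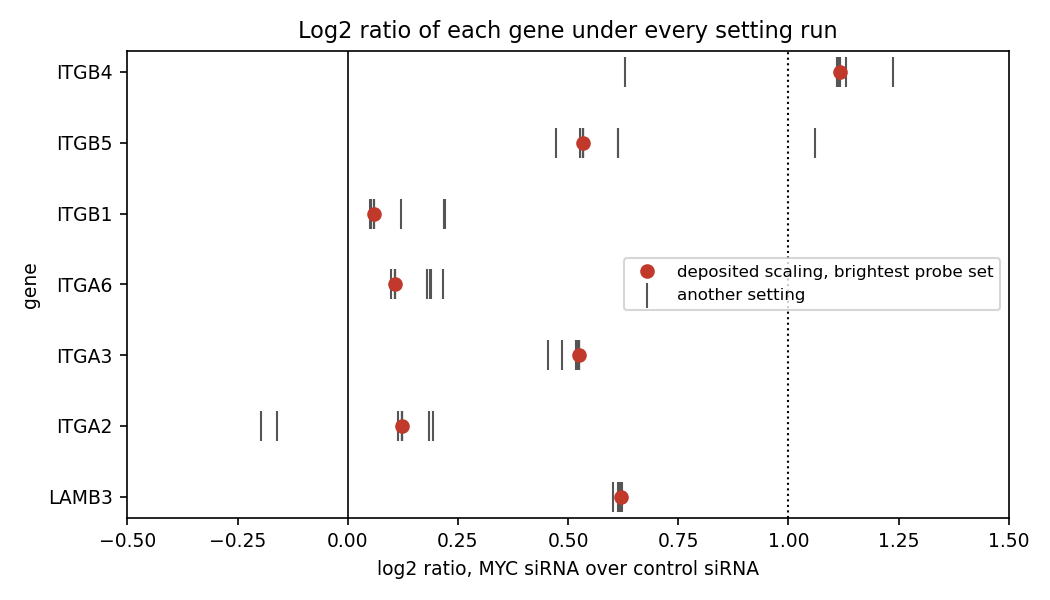
Log2 ratio (x axis, MYC siRNA over control siRNA) of the 7 genes (rows) as reported (red point) and under each other setting run (grey bars), with 2-fold dotted. ITGB4 ranges from 0.63 to 1.24, ITGB5 from 0.47 to 1.06 and ITGA2 from -0.20 to 0.19, while LAMB3 stays between 0.60 and 0.62. The lower and higher floors could not move any of these reported values. For LAMB3, with a single probe set and no suffix, neither could means over probe sets or leaving out suffixed ones.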

How the data were processed

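RNA of 2 HT-29 cultures was measured on GeneChip Human Genome U133 Plus 2.0 arrays, 1 with MYC siRNA and 1 with control siRNA. The authors computed the deposited intensity values (MAS5 signals) with affy 1.40.0 and scaled each array to a mean target of 100. This was checked: leaving out 2% of probe sets at either end, both arrays average 100. Of 54675 probe sets, 41097 name 1 gene, 1801 name several and 11777 are not listed. Symbols were updated through gene identifiers to RefSeq of GRCh38.p14, which held 19735 of 19775 genes. The genes and lists were chosen with earlier results of these data known.

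Signals under 50 were set to 50, the log2 ratio was taken, and a gene took its probe set with the highest mean signal. Named are all probe sets of the 9 genes, MYC, and up to 4 genes per list. The list genes were ranked by absolute log2 ratio among those reaching 100 in one of the arrays. The 4 adaptor genes and 3 matrix genes that were lower were added after their values were seen. With 1 array per condition no test was run. The number of arrays limits the precision, and no error between cultures can be given. Alternatives were floors of 25 and 100, no floor with 1 added, quantile normalization, median centring, loess (span 0.3), thresholds of 1.5-fold and 3-fold, only probe sets without the suffixes _s_at, _x_at and _a_at, which mark possible binding to several transcripts, and means over the probe sets of a gene. The arithmetic was checked on an array simulated from the control array, with known changes well beyond the threshold put into bright probe sets. That check could not test noise, dim probe sets or ratios near the threshold. Python 3.11.15 was used with pandas 2.3.3, numpy 2.4.6, statsmodels 0.14.6, scipy 1.17.1 and matplotlib 3.10.9.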

Additional observations from a re-analysis of the deposited data

How the results depend on the processing

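No paired analysis was possible because each condition has 1 array. The number of UP DEGs among the integrin and laminin probe sets was 3 as reported, beside 2.19% of all probe sets tested. It was 1, the ITGB5 probe set 201124_at, beside 2.37%, when probe sets with a suffix for several transcripts were left out, where ITGB4, ITGB1 and ITGA3 have no probe set above 50, and 0 beside 0.309% at a threshold of 3-fold. It was 2 beside 1.86% after quantile normalization. It was 4 beside 3.02% with a floor of 25, 3.62% with no floor and 9.13% with a threshold of 1.5-fold, with 214021_x_at of ITGB5 as the fourth under the first pair and LAMB3 under the last. No DOWN DEG was found in any setting run. The DOWN share over all probe sets was 5.83% at a threshold of 1.5-fold and at most 0.870% in the other settings. For so few member probe sets, finding none is near that share. The median log2 ratio of the genes lay between 0.37, without those probe sets and over 4 genes, and 0.52. ITGB4 was at least 2-fold higher in 7 of 8 alternatives. Among these, the lower and higher floors could not move its value, because its brightest probe set lay above them in both arrays. Median centring shifts all ratios by the same small amount. With the mean linear ratio over its 5 probe sets, of which 3 under 50 count as unchanged, ITGB4 had a log2 ratio of 0.63. ITGA2 had -0.20 and -0.16 with the mean log2 and mean linear ratio over its probe sets, and ITGB5 had 1.06 on the single probe set left without shared ones. In the alternatives run for each, ITGA3, ITGA6, ITGB1 and LAMB3 stayed higher and within 0.23 of the reported log2 ratio. The lower and higher floors could not move these values or that of MYC. Means over probe sets could not move ITGA3 and LAMB3, which have 1 probe set each. Leaving out probe sets with a suffix could not move ITGA6 and LAMB3, whose brightest probe sets have none. The log2 ratio of MYC lay between -0.27 and -0.16.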

Other observations

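The 4 probe sets listed under both ITGB6 and LINC02478 entered no comparison, since the annotation does not assign them to one gene, and their values are given for the probe sets only. On 226535_at the signal was 637 with MYC siRNA and 218 with control siRNA, 2.92-fold higher. On 208083_s_at it was 110.5 with MYC siRNA and 42.0 with control siRNA, and on 208084_at 82.0 with MYC siRNA and 24.7 with control siRNA, so that with the floor of 50 these were at least 2.21-fold and at least 1.64-fold higher. On 239517_at both arrays were under 50, at 4.31 with MYC siRNA and 1.89 with control siRNA. The 3 probe sets above 50 were higher with MYC siRNA, and which of the annotated transcripts they measured was not tested.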
